A study of Mus musculus with 16 samples.

Results

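The 44 genes described here are nuclear genes for oxidative phosphorylation. In it mitochondria pass electrons from nutrients to oxygen, store the energy as a proton gradient and use that gradient to make ATP. The ATP synthase genes are not among the 44 and are given separately below. All members were taken by symbol from the gene count table of the series, which lists 55357 genes. All 44 were found by Ensembl identifier, and all 44 were among the 14421 genes that passed the filter on low counts. By respiratory complex they comprise 21 genes of complex I (6 core and 15 accessory subunits), 4 of complex II, 7 of complex III, cytochrome c itself, and 11 of complex IV. Their genes lie on 17 chromosomes, with 5 of them on chromosome 1.

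The samples are untreated mouse livers in 4 groups of 4. AUG livers carry a mouse telomerase RNA gene whose genotype is labelled mTERC CUG/AUG, and AUG_WT livers are the wild types named for that line. del7 livers carry mTERC 29_35del, a deletion of 7 nucleotides at positions 29 to 35, and del7_WT livers are the wild types named for that line. No age, sex, strain or batch is given, and CUG/AUG could be read as a changed codon or as 2 alleles. Whether each replicate is its own animal is not stated either; p-values therefore refer to the variation among these libraries, some of which may be technical. The libraries held 7714058 to 14629022 counts in genes. Levels are given as CPM, counts scaled to a library of 1000000 reads in genes, with library totals adjusted by TMM.

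Complex I takes electrons from NADH and complex II takes them from succinate, a step it shares with the citric acid cycle. Complex III passes them to cytochrome c, and complex IV hands them to oxygen. The liver is rich in mitochondria, and the subunits come from both mitochondrial and nuclear genes. Mitochondrial DNA encodes the catalytic centres of complex IV, cytochrome b of complex III and the membrane core of complex I, and nuclear genes, those described here among them, supply the rest. Transcription factors such as NRF1 and GABPA, an ETS family member, are known to bind many of their promoters.

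Levels differed widely between subunits. Per kilobase of annotated exon, Cox6b1, a small subunit on the outer face of complex IV, was highest with a mean over 16 libraries of 159.9 CPM per kb. Cox4i1, the ubiquitous form of subunit 4, followed with 130.2 CPM per kb, then Cox6a1 with 126 CPM per kb and Cox8a with 125 CPM per kb, the forms of subunits 6a and 8 that liver uses. Their SDs over the 16 libraries were 21.3 for Cox6b1, 21.9 for Cox4i1, 23.0 for Cox6a1 and 14.1 CPM per kb for Cox8a. The levels of Cox4i1, Cox6a1 and Cox8a lay within 1 SD of each other, while Cox6b1 was farther above them than any of these SDs. Sdhd, a membrane anchor of complex II, and Sdha, its flavin-bearing catalytic subunit, came next with 104.0 and 99.5 CPM per kb.

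By complex, the median member had 26.0 CPM per kb among the complex I core subunits, 37.7 among its accessory subunits, 74.6 in complex II, 61.3 in complex III and 62.7 in complex IV. The range within a complex was wide as well. Complex I accessory genes spanned 6.83 CPM per kb for Ndufb7 to 71.8 for Ndufb9, and complex IV genes spanned 23.1 for Cox5b to 159.9 for Cox6b1. Cycs, the electron carrier cytochrome c, was lowest of all with 3.04 CPM per kb. The exon lengths behind these values count every annotated exon and come from GENCODE M21 on an older genome build.

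The level of Cycs is uncertain. It has 4 copies elsewhere in the genome that match its transcript at 95% or more over at least 200 bases, and reads that align equally well to several places were left out of the gene counts. All 4 copies had 0 counts. Of the 44 members, 9 had such a copy, and only for Cox5b did the copy's own counts exceed 1% of the member's: Gm11273, 99.2% identical over 390 bases, held 118 counts, or 1.82% of the Cox5b total.

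The promoters of 5 members are shown because their genes carry the comparisons that follow. Ndufa8 and Sdha are the members whose groups did not overlap in the mutant comparisons of all libraries. Sdhd had the highest level per kilobase in complex II, and Cycs changed least in the library that stood apart. Cox5b ran against the other members in AUG vs AUG_WT with all libraries. Each line gives the 120 bases before the annotated start on the gene's own strand, from RefSeq on GRCm38.p6. Capitals mark GCGCNNGCGC, the core of the NRF1 motif, and CCGGAAG or its complement CTTCCGG, an ETS motif.
Ndufa8 (chr2:36049339-36049458, minus strand): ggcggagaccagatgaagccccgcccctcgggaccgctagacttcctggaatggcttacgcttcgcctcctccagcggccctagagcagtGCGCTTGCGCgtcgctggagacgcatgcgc
Sdha (chr13:74350241-74350360, minus strand): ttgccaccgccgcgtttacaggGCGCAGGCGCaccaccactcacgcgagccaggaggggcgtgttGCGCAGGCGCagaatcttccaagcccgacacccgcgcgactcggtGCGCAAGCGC
Sdhd (chr9:50603850-50603969, minus strand): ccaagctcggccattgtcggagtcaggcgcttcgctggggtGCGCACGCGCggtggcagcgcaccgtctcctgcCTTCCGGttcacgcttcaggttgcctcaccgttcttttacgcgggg
Cycs (chr6:50566570-50566689, minus strand): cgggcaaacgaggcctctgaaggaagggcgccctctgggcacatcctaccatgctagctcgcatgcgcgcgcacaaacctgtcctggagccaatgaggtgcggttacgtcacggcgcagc
Cox5b (chr1:36691367-36691486, plus strand): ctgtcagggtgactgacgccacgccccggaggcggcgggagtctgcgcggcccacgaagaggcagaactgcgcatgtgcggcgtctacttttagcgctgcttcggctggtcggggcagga

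The printed stretch of Sdha holds 3 matches to the NRF1 core, that of Sdhd holds 1 of each motif, and that of Ndufa8 holds 1 NRF1 core. Neither string of letters is present exactly in these 120 bases of Cycs or Cox5b. Only exact matches were searched, so sites that differ from these letters by a base or more were not looked for. Promoters from 250 bases before to 50 after the start were matched for 34 of the 44 members and searched on both strands. GCGCNNGCGC was found in 8 of the 34 (23.5%), against 8.80% of 17492 protein-coding promoters of the same length. CCGGAAG was found in 9 (26.5%), against 11.9% of all, and AAGATGGC, a YY1 motif, in 4 (11.8%), against 3.22%. CCAAT, found in 38.2% of the members and 39.0% of all, and GGGCGG, found in 44.1% and 46.3%, were at similar shares. A match is a description of the letters and not of binding.

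AUG_WT replicate 1 differed from all the others in nearly every member. It was the lowest of 16 for 43 of the 44 genes, against 25.9% of all genes tested; the exception was Cycs, lowest in del7 replicate 4. The summed level of the 44 genes was 1943 CPM in that library, against 3385, 4063 and 4405 CPM in the other AUG_WT libraries and 3301 to 4190 CPM in the other 12. Relative to the mean of the other 3 AUG_WT libraries, the median member was 0.99 lower on the log2 scale, with a range of -1.27 for Ndufa5 to -0.16 for Cycs. With library totals in place of TMM the median member was at -0.44 and the median of all genes at 0.56, instead of 0.03, so that the gap between members and all genes was -1.002, against -1.015 with TMM.

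The complexes moved together in that library. Its median difference was -0.93 for the complex I core, -0.93 for the accessory subunits, -1.08 for complex II, -1.13 for complex III and -0.94 for complex IV. Sdha had 179 CPM there, against 343, 460.3 and 501 CPM in the other AUG_WT libraries. The least lowered members after Cycs were Ndufa8, a complex I accessory subunit, at -0.54, Cox8a at -0.63 and Cox6b1 at -0.72.

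Other gene groups moved in the same library. Hepatocyte markers were lower in 10 of 10 tested genes with a median of -1.18, and their summed level was 51131 CPM, against 111763 to 169849 CPM in the other 3 AUG_WT libraries. That sum was 118576 to 125228 CPM in AUG, 111657 to 134957 in del7 and 121132 to 143051 in del7_WT. The ratio of summed members to summed hepatocyte markers was 0.0380 in AUG_WT replicate 1, within the 0.0199 to 0.0394 of the other 3. It was above the 0.0251 to 0.0335 of the AUG, del7 and del7_WT libraries. Markers of B and plasma cells were higher in 7 of 7 tested genes with a median of 4.23, and markers of T and NK cells in 5 of 5 with a median of 3.55. All tested markers of proliferation (4, median 4.02), neutrophils (3, 3.04), Kupffer cells (10, 1.52) and bile duct cells (5, 1.37) were higher too. Erythroid markers were lower in 6 of 7 with a median of -2.81, and stellate and endothelial cell markers had both signs. Summed B and plasma cell markers were 48.4 to 107.0 CPM in AUG, 92.7 to 359 in the other 3 AUG_WT libraries and 1263 in AUG_WT replicate 1, with 44.7 to 231.5 in del7 and 54.3 to 115 in del7_WT. The part of these markers in the members' levels was not tested. In bulk liver, fewer hepatocytes and less of a transcript per hepatocyte cannot be told apart. For each comparison below, the signs and the median over all members are therefore given with and without this library. In del7 vs del7_WT most values by complex and by gene are from the fit of all libraries.

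**Figure D1:**
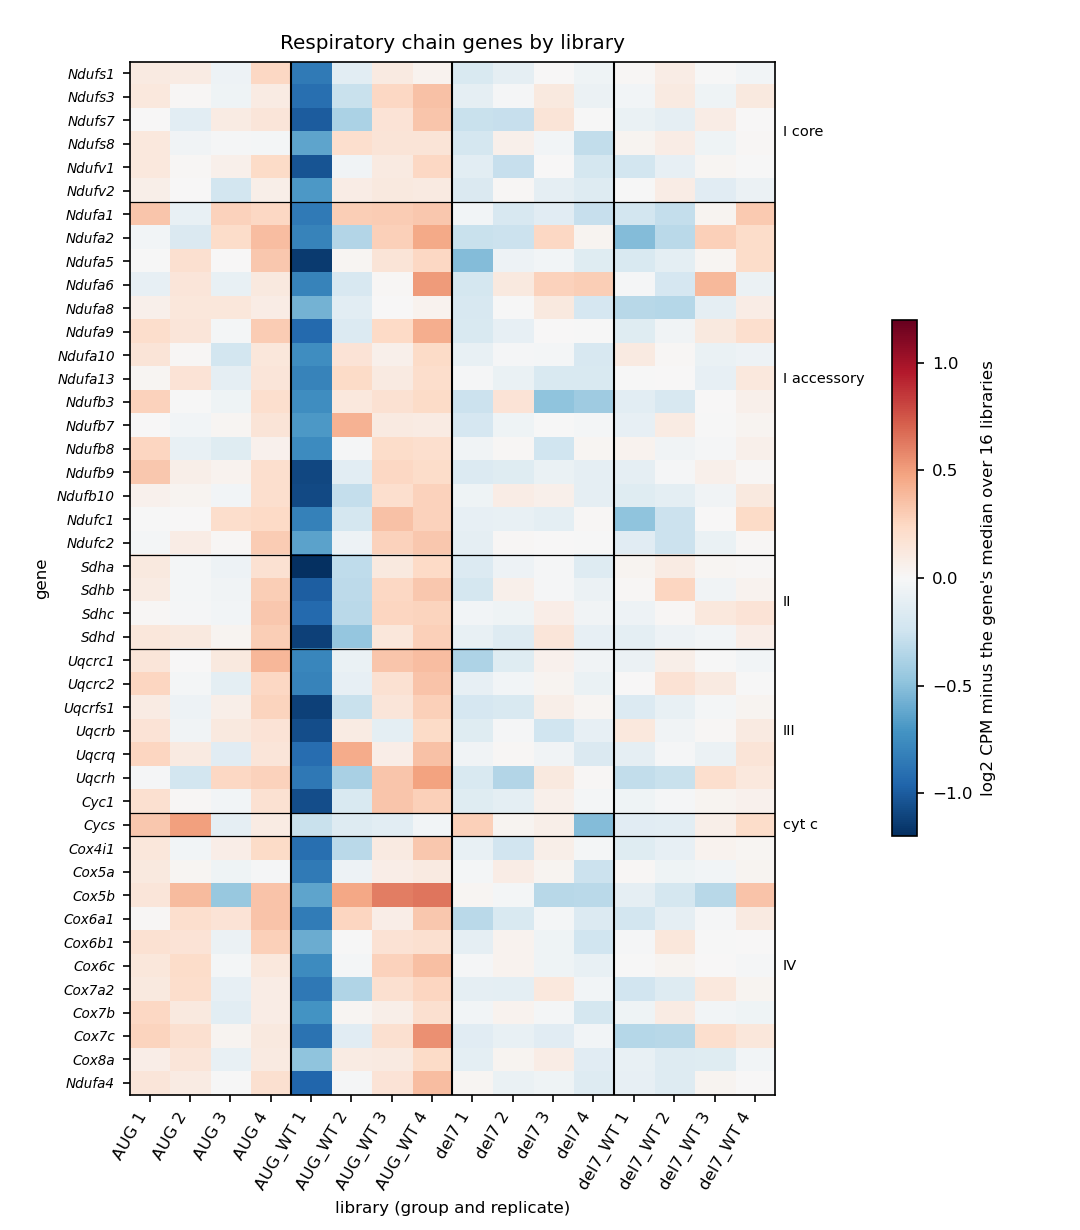
Level of each of the 44 genes in each of the 16 libraries, as log2 CPM minus the gene's median over the libraries, grouped by complex, with blue for lower and red for higher. The column of AUG_WT replicate 1 is blue in every row, palest for Cycs. The other 15 columns show mostly smaller deviations, and that of AUG_WT replicate 4 is red in most rows.

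**Figure D2:**
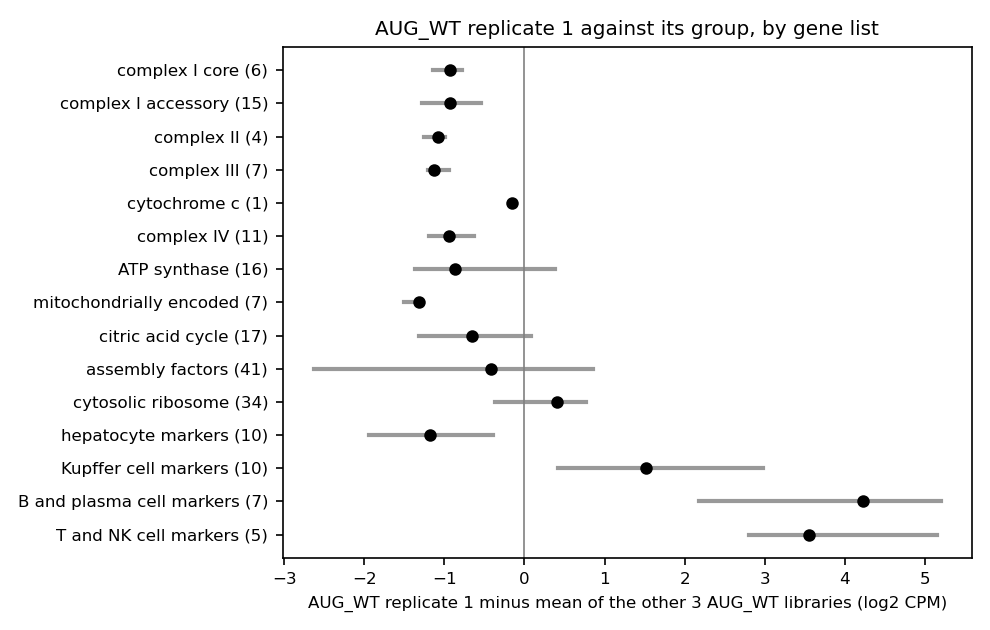
Difference between AUG_WT replicate 1 and the mean of the other 3 AUG_WT libraries in log2 CPM, with the median gene of each list as a point and its lowest and highest gene as the ends of the bar; the number of genes is in brackets. The 5 multi-gene respiratory chain lists lie at -0.93 to -1.13, beside hepatocyte markers at -1.18 and mitochondrially encoded genes at -1.32, while B and plasma cell markers lie at 4.23.

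In AUG livers, 43 of the 44 genes had a level above that of AUG_WT livers and none passed the test. The median log2 fold change of the members was 0.15, against -0.04 over all genes tested. Without AUG_WT replicate 1 the picture turned: 15 members were above 0 and 29 below, with a median of -0.03, against 0.01 over all genes. The comparison asks what the AUG genotype does to liver transcripts relative to its own wild types. edgeR's quasi-likelihood test with Benjamini-Hochberg adjustment called 0 of 44 members at an adjusted p under 0.05, against 0.0277% of all genes (4 of 14421). At an unadjusted p under 0.05 it found 0 members, against 8.81% of all genes. DESeq2 and limma voom with quality weights also called 0, each with 1 member at an unadjusted p under 0.05. Their shares of all genes at that unadjusted p are not given here. Without AUG_WT replicate 1, 0 members were called, against 0.0274% of all genes, and 1 had an unadjusted p under 0.05, against 5.92%. Erythroid markers were below 0 in AUG livers in 7 of 7 tested genes with a median of -1.95, and in 8 of 8 with a median of -2.15 without that library. Their summed level was 146 to 541 CPM in AUG livers, against 143 CPM in AUG_WT replicate 1 and 644 to 2994 CPM in the other 3 AUG_WT libraries. Kupffer cell markers were above 0 in 5 of 10 genes, and in 10 of 10 with a median of 0.39 without AUG_WT replicate 1. None of these markers was called, and their part in the members' levels was not tested.

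Among the complex I core subunits, which carry the flavin and the iron-sulfur clusters, 6 of 6 were above 0 with a median of 0.14, and 2 of 6 were above 0 with a median of -0.04 without AUG_WT replicate 1. Ndufs1, the largest iron-sulfur subunit, had 129, 129, 115 and 143 CPM in the 4 AUG livers, against 66.9, 110.4, 130.0 and 124 CPM in the AUG_WT livers. The groups overlapped, and the lowest value was that of AUG_WT replicate 1. Its log2 fold change was 0.26 (SE 0.16, adjusted p = 0.640, edgeR), and 0.11 (SE 0.09) without that library.

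Ndufv1, the subunit that binds NADH, averaged 106 ± 6.86 CPM in AUG and 91.1 ± 30.2 CPM in AUG_WT livers (SD, n = 4 each), a log2 fold change of 0.21 (SE 0.19). Without AUG_WT replicate 1 the AUG_WT mean was 106 ± 10.6 CPM (SD, n = 3) and the log2 fold change 0.02. Ndufs8, an iron-sulfur subunit near the quinone site, had 41.5, 36.9, 37.7 and 37.5 CPM in AUG livers, against 24.6, 43.8, 42.4 and 42.5 CPM in AUG_WT livers. All 4 AUG values lay below the other 3 AUG_WT values and above that of AUG_WT replicate 1. The fold change of Ndufs8 was accordingly 0.01 (SE 0.15) with that library and -0.14 (SE 0.09) without it.

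All 15 accessory subunits of complex I, which surround the core and stabilise it, were above 0 with a median of 0.12, and 3 of 15 without AUG_WT replicate 1, with a median of -0.05. Ndufa8 had 47.5, 50.2, 49.9 and 48.4 CPM in AUG livers, against 30.7, 41.6, 45.7 and 47.0 CPM in AUG_WT livers. Every AUG value was above every AUG_WT value, narrowly so for AUG_WT replicate 4. Groups that did not overlap, in either direction, were found for 1 of the 44 members and for 2.05% of all genes. The log2 fold change of Ndufa8 was 0.25 (SE 0.13, adjusted p = 0.616, edgeR), and 0.15 (SE 0.12) without AUG_WT replicate 1.

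Ndufb9, a subunit of the membrane arm, averaged 83.7 ± 7.70 CPM in AUG and 69.8 ± 24.9 CPM in AUG_WT livers (SD, n = 4 each). Its log2 fold change was 0.26 (SE 0.20), and 0.06 (SE 0.10) without AUG_WT replicate 1. Ndufb3, in the same arm, averaged 21.3 ± 2.31 CPM in AUG and 19.7 ± 5.33 CPM in AUG_WT livers, with fold changes of 0.12 (SE 0.19) and -0.05 (SE 0.14). Neither difference exceeded the SD of the AUG_WT libraries.

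Complex II, the only one of these complexes made wholly from nuclear genes, had 4 of 4 members above 0 with a median of 0.22, and a median of 0.02 without AUG_WT replicate 1. Sdha had 458, 416, 406 and 481 CPM in AUG livers, against 179, 343, 460.3 and 501 CPM in AUG_WT livers. The AUG values lay inside the range of the AUG_WT values, and the 2 lowest livers were AUG_WT replicates 1 and 2. The log2 fold change of Sdha was 0.25 (SE 0.22, adjusted p = 0.752, edgeR), and 0.04 (SE 0.12) without AUG_WT replicate 1.

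Sdhd had 143, 141, 133 and 159 CPM in AUG livers, against 60.1, 94.5, 143 and 159 CPM in AUG_WT livers. Its log2 fold change was 0.34 (SE 0.21, adjusted p = 0.668, edgeR), and 0.14 (SE 0.14) without AUG_WT replicate 1. Here too AUG_WT replicates 1 and 2 were the low ones, and the other 2 lay among the AUG values. Sdhb, the iron-sulfur subunit, averaged 118 ± 13.4 CPM in AUG and 104 ± 38.5 CPM in AUG_WT livers (SD, n = 4 each), with a log2 fold change of 0.19 (SE 0.21), and -0.004 (SE 0.14) without AUG_WT replicate 1. Complex II made up 18.3% and 18.2% of the summed members in AUG_WT replicates 1 and 2 and 20.8% to 23.0% in the other 14 libraries.

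In complex III, 7 of 7 members were above 0 with a median of 0.14, and 2 of 7 were above 0 with a median of -0.03 without AUG_WT replicate 1. Uqcrb, a small subunit at the quinone site, had 61.2, 53.0, 59.1 and 60.9 CPM in AUG livers, against 26.1, 58.2, 50.2 and 64.0 CPM in AUG_WT livers. AUG_WT replicate 1 was far below the rest, and the AUG values lay within the range of the other 3 AUG_WT values. The log2 fold change of Uqcrb was 0.24 (SE 0.19, adjusted p = 0.729, edgeR), and 0.04 (SE 0.09) without it.

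Uqcrfs1, the Rieske iron-sulfur protein, averaged 125 ± 11.8 CPM in AUG and 106 ± 39.7 CPM in AUG_WT livers (SD, n = 4 each). Uqcrc1, a core protein of the complex, averaged 166 ± 19.5 CPM in AUG and 150.2 ± 48.9 CPM in AUG_WT livers. Cyc1, cytochrome c1, averaged 107 ± 8.69 CPM in AUG and 96.6 ± 36.5 CPM in AUG_WT livers. Their log2 fold changes were 0.25 (SE 0.21) for Uqcrfs1, 0.14 (SE 0.19) for Uqcrc1 and 0.15 (SE 0.21) for Cyc1. In the same order they were 0.04, -0.03 and -0.05 without AUG_WT replicate 1, each smaller than its SE.

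Cycs, which shuttles electrons between complexes III and IV and takes part in apoptosis when released, had the largest fold change and the smallest p of the members. It had 12.7, 14.3, 9.42 and 10.9 CPM in AUG livers, against 8.42, 9.10, 9.32 and 9.90 CPM in AUG_WT livers. All AUG libraries but replicate 3 lay above every AUG_WT library, and AUG replicate 3 lay between AUG_WT replicates 3 and 4. The log2 fold change was 0.36 (SE 0.17, unadjusted p = 0.0501, adjusted p = 0.568, edgeR). It was 0.34 (SE 0.18, adjusted p = 0.836) without AUG_WT replicate 1, a library in which Cycs was little lowered. The uncertainty from its copies, given above, applies here.

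Of the 11 members of complex IV, 10 were above 0 with a median of 0.16, and 4 were above 0 with a median of -0.02 without AUG_WT replicate 1. Ndufa4, first assigned to complex I and now to complex IV, averaged 126 ± 7.02 CPM in AUG and 115 ± 38.8 CPM in AUG_WT livers (SD, n = 4 each). Cox4i1 had 226, 201, 218 and 241 CPM in AUG livers, against 110.2, 164, 222 and 258 CPM in AUG_WT livers. Its AUG values lay inside the AUG_WT range, and its log2 fold change was 0.23 (SE 0.19, adjusted p = 0.734, edgeR), or 0.06 (SE 0.13) without AUG_WT replicate 1. Cox6b1 had 127, 126, 107 and 136 CPM in AUG livers, against 73.7, 111, 126 and 128 CPM in AUG_WT livers, with a log2 fold change of 0.18 (SE 0.15), or 0.05 (SE 0.10) without that library.

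Cox5b, a zinc-binding subunit of complex IV, was the member below 0. It had 38.2, 44.8, 25.1 and 43.7 CPM in AUG livers, against 22.3, 47.6, 52.7 and 54.0 CPM in AUG_WT livers. With AUG_WT replicate 1 left out, every AUG value was below every AUG_WT value. Groups without overlap were then counted on CPM scaled again over the 15 libraries left. They were found for 2 of the 44 members, Cox5b and Ndufa8, and for 5.53% of all genes. On the CPM printed here, scaled over 16 libraries, Ndufs8 and Ndufv2 also had every AUG value below the remaining AUG_WT values. The log2 fold change of Cox5b was -0.22 (SE 0.25, adjusted p = 0.812, edgeR), and -0.42 (SE 0.19, unadjusted p = 0.0447, adjusted p = 0.834) without that library. The near-identical copy Gm11273 bears on its counts, as given above.

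**Figure D3:**
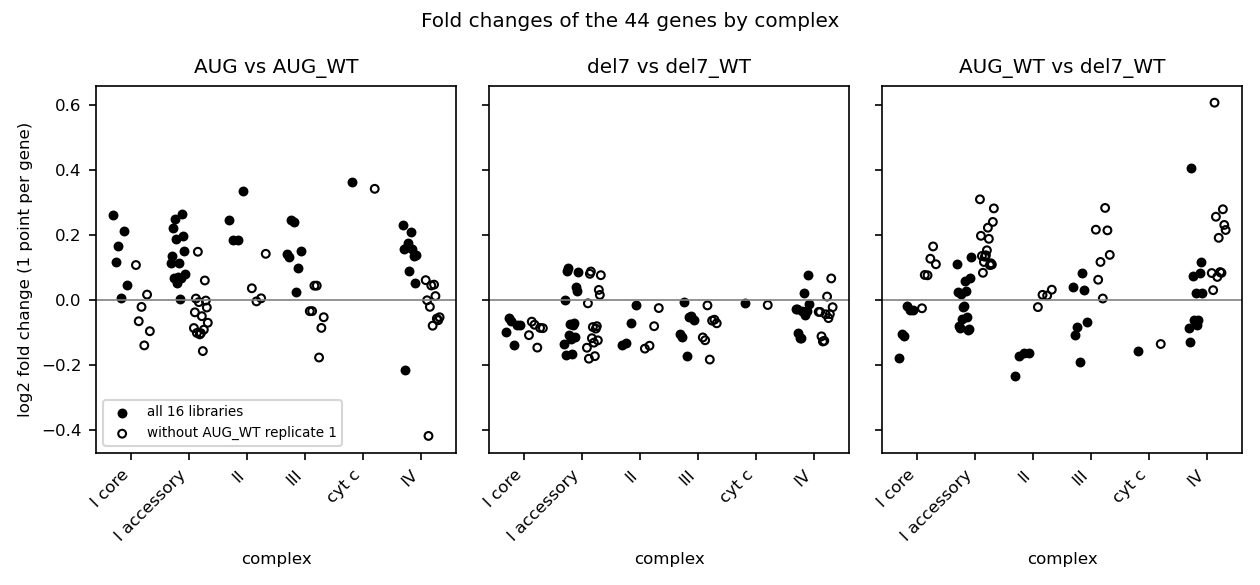
Log2 fold change of each of the 44 genes, by complex, in AUG vs AUG_WT, del7 vs del7_WT and AUG_WT vs del7_WT, with filled points for all 16 libraries and open points without AUG_WT replicate 1. In AUG vs AUG_WT 43 filled points lie above 0 and 29 open points below it, and in AUG_WT vs del7_WT 41 open points lie above 0.

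In del7 livers, 36 of the 44 members were below del7_WT livers and 8 above, and none passed the test. The shifts were small, with a median log2 fold change of -0.07, a lowest of -0.17 for Uqcrb and a highest of 0.10 for Ndufa8; the median of all genes tested was 0.00. The comparison asks what the 7-nucleotide deletion does to liver transcripts relative to its own wild types. edgeR called 0 of 44 members and 0% of all genes, and found 0 members at an unadjusted p under 0.05, against 1.92% of all genes. DESeq2 and limma voom with quality weights called 0 members as well, with 0 at an unadjusted p under 0.05. Without AUG_WT replicate 1 in the shared fit, 37 members were below 0 with a median of -0.08. Of the members, 0 were then called by edgeR and 0 had an unadjusted p under 0.05, against 0 and 778 of 14582 genes.

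Markers of other cells differed between del7 and del7_WT livers as well, and none of them was called. Kupffer cell markers were above 0 in 10 of 10 genes with a median of 0.77. Of them 6 had an unadjusted p under 0.05 (edgeR), against 1.92% of all genes. Their summed level was 432 to 701 CPM in del7, against 266.6 to 426 CPM in del7_WT livers, without overlap. Neutrophil markers were above 0 in 3 of 3 tested genes with a median of 1.49, and 1 had an unadjusted p under 0.05. They summed to 6.59 to 14.4 CPM in del7, against 2.60 to 5.19 CPM in del7_WT livers. With AUG_WT replicate 1 out of the shared fit, 9 of 10 Kupffer cell and 3 of 3 neutrophil markers had an unadjusted p under 0.05, against 778 of 14582 genes. Erythroid markers were above 0 in 7 of 7 tested genes with a median of 0.91, and hepatocyte markers were below 0 in 8 of 10 with a median of -0.03. The part of these markers in the members' levels was not tested.

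All 6 core subunits of complex I, all 4 members of complex II and all 7 of complex III were below 0, with medians of -0.08, -0.10 and -0.06. Complex I accessory subunits were mixed, with 6 above and 9 below 0, and complex IV had 2 above and 9 below with a median of -0.03. In the fit of all 16 libraries, the median SE of a member's log2 fold change was 0.19, larger than any of these shifts. That fit shares the spread of AUG_WT replicate 1, a library in neither group. Without it the median within-group SD of the members' log2 CPM fell from 0.30 to 0.16.

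Sdha had 378, 404, 419 and 381 CPM in del7 livers, against 434, 453, 429 and 427 CPM in del7_WT livers. Every del7 value was below every del7_WT value, which held in either direction for 1 of the 44 members and for 4.01% of all genes. Its log2 fold change was -0.14 (SE 0.22, adjusted p = 1, edgeR), and -0.15 (SE 0.11) with AUG_WT replicate 1 out of the shared fit. Sdhb averaged 107 ± 8.33 CPM in del7 and 117 ± 10.97 CPM in del7_WT livers, and Sdhd 126 ± 12.0 CPM in del7 and 128 ± 7.31 CPM in del7_WT livers (SD, n = 4 each).

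Uqcrb, with the smallest p among complex III members, had 49.4, 54.0, 46.3 and 51.0 CPM in del7 livers, against 59.5, 52.8, 55.0 and 58.9 CPM in del7_WT livers. Only del7 replicate 2 and del7_WT replicate 2 crossed, and the log2 fold change was -0.17 (SE 0.19, adjusted p = 1, edgeR). Ndufb3 had 16.5, 22.0, 14.1 and 14.7 CPM in del7 livers, against 18.1, 17.3, 19.7 and 20.6 CPM in del7_WT livers. Its highest value was in del7 replicate 2 and the other del7 livers were lower than all del7_WT livers. The log2 fold change of Ndufb3 was -0.16 (SE 0.19). The SEs of Uqcrb and Ndufb3 share the spread of AUG_WT replicate 1. Without that library the within-group SD of log2 CPM fell from 0.30 to 0.12 for Uqcrb and from 0.29 to 0.17 for Ndufb3. The lowest fold change in complex III was then -0.18.

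Ndufs1 had 106, 112, 121 and 117 CPM in del7 livers, against 122, 128, 120.1 and 118 CPM in del7_WT livers, with a log2 fold change of -0.10 (SE 0.16). That SE shares the spread of AUG_WT replicate 1, without which the within-group SD of its log2 CPM fell from 0.23 to 0.10. Ndufs8 averaged 35.2 ± 3.95 CPM in del7 and 38.7 ± 1.59 CPM in del7_WT livers, and Cox6b1 105 ± 8.50 CPM in del7 and 114 ± 5.80 CPM in del7_WT livers (SD, n = 4 each). Cox4i1, with 197 ± 17.0 CPM in del7 and 200.3 ± 12.8 CPM in del7_WT livers, and Cycs, with 10.1 ± 2.22 CPM in del7 and 10.2 ± 1.22 CPM in del7_WT livers, had log2 fold changes of -0.03 and -0.01. The groups of Ndufs1 and Cox6b1 differed by more than 1 SD of either group, and those of Cox4i1 and Cycs by less; none of these genes passed the test.

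**Figure D4:**
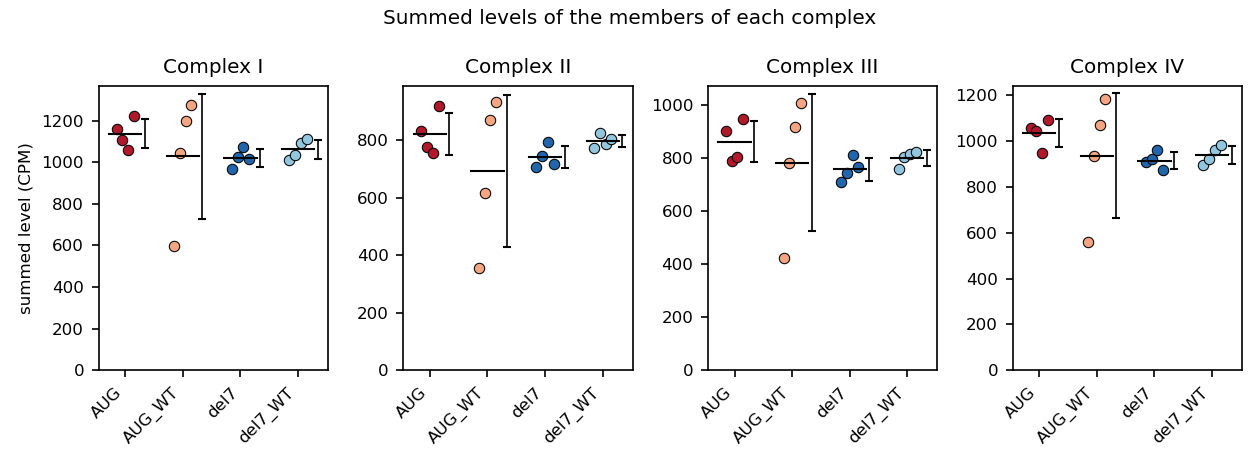
Summed CPM of the members of complexes I, II, III and IV in each library, with 1 point per library, a line at the group mean and a bar for the SD (n = 4). AUG_WT replicate 1 is the lowest point in each panel, at 599, 355, 422 and 558 CPM, and the del7 and del7_WT points overlap in each panel; for complex II, del7 replicate 3 is the only del7 point inside the range of del7_WT.

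The wild types of both lines were also set against each other, since the labels name separate wild types for each mutant. With all libraries, 16 members were higher and 28 lower in AUG_WT than in del7_WT livers, with a median of -0.06 against 0.03 over all genes. Without AUG_WT replicate 1, 41 were higher and 3 lower, with a median of 0.12 against -0.004 over all genes. edgeR called 0 members, against 0.0347% of all genes, and 0 had an unadjusted p under 0.05, against 11.8%. DESeq2 and limma voom with quality weights called 0, with 0 and 9 at an unadjusted p under 0.05. The shares of all genes at that unadjusted p under these tools are not given here, so the 9 cannot be judged against them. Without AUG_WT replicate 1, edgeR called 0 members, against 0.0686% of all genes, and 7 had an unadjusted p under 0.05, against 7.47% of all genes. With all libraries, groups that did not overlap were found for 0 of the 44 members and for 3.53% of all genes. With AUG_WT replicate 1 left out they were found for 4 members, Ndufs8, Ndufb3, Cox5b and Cox8a, and for 7.62% of all genes.

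Cox5b had the smallest p. It averaged 44.1 ± 14.8 CPM in AUG_WT and 33.2 ± 7.25 CPM in del7_WT livers (SD, n = 4 each), and 51.4 ± 3.38 CPM in AUG_WT livers without replicate 1 (SD, n = 3). The log2 fold change was 0.41 (SE 0.25, adjusted p = 0.566, edgeR), and 0.61 (SE 0.19, unadjusted p = 0.00621, adjusted p = 0.384) without that library. The 6 others with an unadjusted p under 0.05 were Ndufa1, Ndufc2, Uqcrq, Cox6a1, Cox8a and Ndufa4, named here after their values were seen, with log2 fold changes of 0.22 for Ndufa4 to 0.31 for Ndufa1 and adjusted p-values of 0.512 to 0.652.

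**Figure D5:**
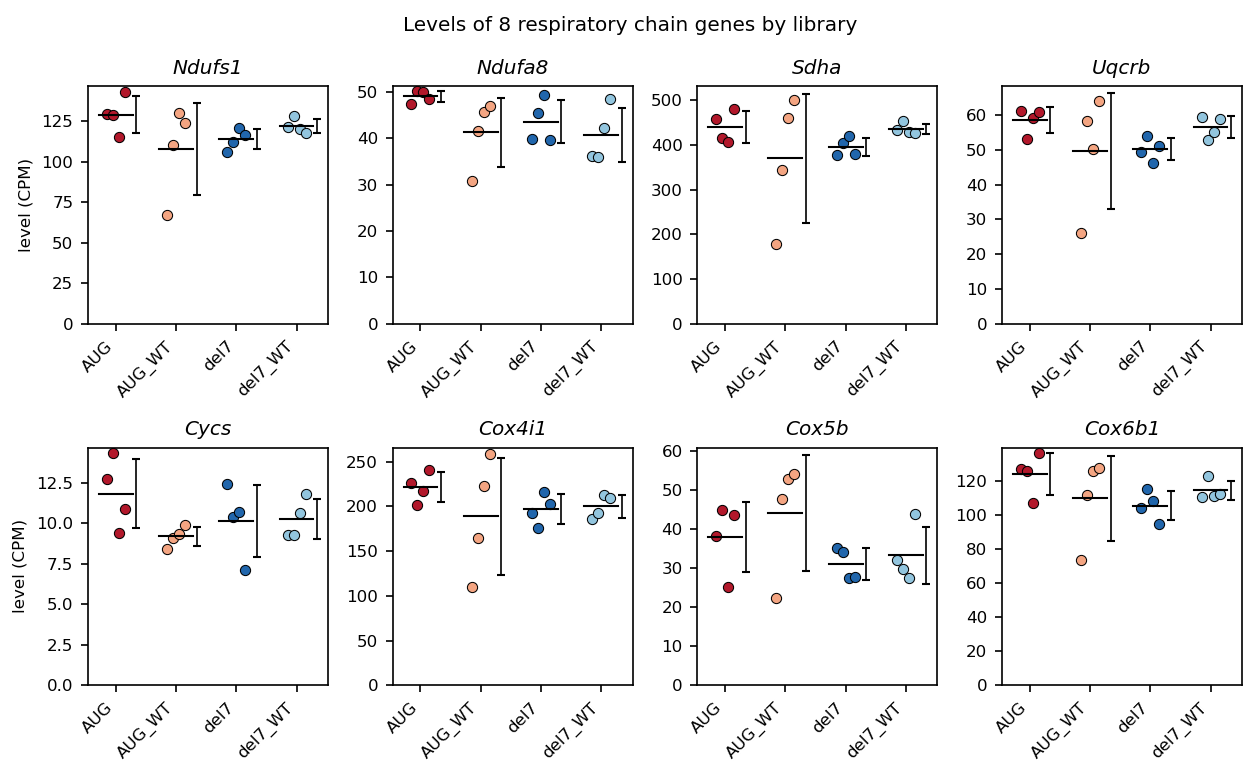
Level in CPM of 8 of the genes in each library of the 4 groups, with a line at the group mean and a bar for the SD (n = 4). AUG_WT replicate 1 is the lowest point of its group in every panel; for Ndufa8 the 4 AUG points lie above all AUG_WT points, and for Sdha the 4 del7 points lie below all del7_WT points.

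The difference between the mutants' effects was tested as an interaction over all 16 libraries. The AUG effect minus the del7 effect was above 0 for 40 of 44 members with a median of 0.20, against -0.04 over all genes. edgeR called 0 members, against 0.00693% of all genes, and 0 had an unadjusted p under 0.05, against 5.21%; DESeq2 and limma voom with quality weights called 0, with 0 at an unadjusted p under 0.05. Uqcrb had the largest difference, 0.41 (SE 0.27, adjusted p = 0.873, edgeR), and 0.23 (SE 0.13) without AUG_WT replicate 1. Over the members, 28 were above 0 without that library, with a median of 0.05.

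Other genes of the pathway were counted in the same way, and none of them was called in either mutant comparison. In AUG vs AUG_WT, 12 of 15 further complex I subunits were above 0 with a median of 0.11, and 5 with a median of -0.02 without AUG_WT replicate 1. Of 16 ATP synthase genes, which use the proton gradient to make ATP, 13 were above 0 with a median of 0.16, and 8 above and 8 below 0 without it. Among 41 assembly factors, which build the complexes and stay out of them, 29 were above 0 with a median of 0.12, and 22 with a median of 0.002 without it. The 17 citric acid cycle genes had 14 above 0 with a median of 0.13, and 8 with a median of -0.003 without it. In del7 vs del7_WT most of each of these lists lay below 0. Above 0 were 3 of the 15 complex I subunits (median -0.05), 5 of the 16 ATP synthase genes (-0.06), 14 of the 41 assembly factors (-0.02) and 4 of the 17 citric acid cycle genes (-0.06). The 3 further genes of complexes III and IV had 2 above 0 in del7 vs del7_WT with a median of 0.04. In AUG vs AUG_WT they had 2 above 0 with a median of 0.10, and 1 with a median of -0.02 without AUG_WT replicate 1.

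Sco1, a copper carrier for complex IV, had the smallest p of the assembly factors, at 16.4 ± 1.02 CPM in AUG livers and 13.2 ± 0.411 CPM in AUG_WT livers (SD, n = 4 each) and a log2 fold change of 0.31 (SE 0.11, adjusted p = 0.561, edgeR). The fold change was 0.31 without AUG_WT replicate 1 as well. Idh3a, a catalytic subunit of the NAD-dependent isocitrate dehydrogenase, had a log2 fold change of 0.25 (SE 0.13, adjusted p = 0.594), and 0.29 without that library. Esrra, a nuclear receptor that drives respiratory chain genes, had 26.0 ± 5.37 CPM in AUG and 21.4 ± 2.53 CPM in AUG_WT livers, and neither it nor any of the 15 tested regulators of mitochondrial biogenesis was called.

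Mitochondrially encoded subunits were measured by 7 genes. In AUG vs AUG_WT 3 of the 7 were above 0 with a median of -0.06, and 1 of 7 with a median of -0.27 without AUG_WT replicate 1. In del7 vs del7_WT all 7 were below 0 with a median of -0.26, and mt-Nd6, a complex I subunit, was at -0.34 (SE 0.24, adjusted p = 1, edgeR). The other 6 of the 13 mitochondrial genes were listed at 0 counts in all 16 libraries and are not used. Cytosolic ribosomal protein genes ran against the members in AUG vs AUG_WT with all libraries, with 33 of 34 below 0 and a median of -0.23. Without AUG_WT replicate 1, 28 of 34 were below 0 with a median of -0.09, and 29 of the 44 members were below 0 too. In del7 vs del7_WT, 31 of 34 were above 0 with a median of 0.08.

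The spread between replicates depended on AUG_WT replicate 1. The median within-group SD of log2 CPM was 0.30 for the members and 0.31 for all genes with it, and 0.16 for the members and 0.25 for all genes without it. Cox8a had the smallest SD without it, 0.09, and Ndufa2, Uqcrh and Cox5b the largest, 0.34, 0.31 and 0.26. The 3 AUG_WT libraries left were still uneven. AUG_WT replicate 4 held the highest value of the 16 for 22 of the 44 members, against 7.04% of all genes tested. In AUG_WT replicate 2 Ndufb7 and Uqcrq were at their highest, 41.1 and 184.5 CPM. There the 4 complex II genes were below those of all libraries but AUG_WT replicate 1.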

How the data were processed

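RNA was measured by sequencing of ribosomal RNA-depleted, strand-specific libraries from 16 frozen mouse livers, per the labels' protocols. Cutadapt 2.10, STAR 2.7.9a and the GRCm39 genome are named in the submitters' processing notes, and no annotation release is stated there. The values deposited by the authors are raw counts per gene, and the series count table equalled the reverse-strand counts of all 16 libraries. Its 16 columns matched samples by title. Reads aligned to several places (9.23% to 15.0%) or outside genes (21.8% to 35.0%, highest in AUG_WT replicate 1) stayed out of the totals. The telomerase RNA gene is not analysed here, so genotypes were not checked in the reads.

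Tests on these counts used edgeR 4.0.16 (R 4.3.3): filterByExpr with a minimum count of 10, TMM scaling, and glmQLFit and glmQLFTest on a model with 1 mean per group over all 16 libraries (12 residual degrees of freedom). P-values are two-sided and adjusted by Benjamini-Hochberg over the 14421 genes tested. The SE of a fold change is its size divided by the root of the F statistic, and log2 CPM carries a prior count of 2. Leaving out AUG_WT replicate 1 repeats the filter, the TMM scaling and the fit on 15 libraries, with 14582 genes and 11 residual degrees of freedom. Counts of groups without overlap that leave out this library use that scaling. The closest pair of libraries, the same-numbered del7 replicate 3 and del7_WT replicate 3, had a chi-square of 8.60 per gene, so each was counted separately.

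GENCODE M21 (GRCm38) named 52081 of 55357 genes by Ensembl identifier and supplied exon lengths, chromosomes and transcripts, which were searched for copies with blastn 2.17.0. Promoters are from RefSeq, GRCm38.p6. Full values are given for the members with the smallest p in each mutant comparison and the highest level per kilobase in each complex, and for 9 main subunits; outside the members, for list genes with the smallest p. The members and lists were chosen with earlier results of these data known. Alternatives were other scalings, filters, tools (DESeq2 1.42.0, limma 3.58.1), control groups, unstranded counts, a replicate block and leaving out each library. The pipeline was also run on simulated counts. No simulated library stood apart from its group, so that run cannot show how the fit behaves with AUG_WT replicate 1.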

Additional observations from a re-analysis of the deposited data

Results flagged for a closer look

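Within a group of 4 libraries, 11 member values lay farther from the other 3 than Dixon's critical value of 0.829, given here as the gap over the group's range. Chance flags about 1 in 20 groups, and such gaps were found for 5.63% of all genes in AUG, 16.5% in AUG_WT, 5.21% in del7 and 5.06% in del7_WT; among the 44 members there were 2, 5, 2 and 2. In AUG livers, Ndufs8 was high in replicate 1 (0.837) and Sdhc in replicate 4 (0.894). In AUG_WT livers, replicate 1 was low for Ndufs8 (0.927), Ndufv2 (0.951), Ndufa1 (0.974), Ndufa13 (0.839) and Ndufb3 (0.857), all complex I genes whose other 3 AUG_WT values lay close together. In del7 livers, Ndufc2 was low in replicate 1 (0.875) and Sdhc high in replicate 3 (0.835). In del7_WT livers, replicate 2 was high for Cox6b1 (0.882) and Cox7b (0.876). For Ndufa1 the low value was 11.4 CPM, against 25.4 to 25.8 CPM in the other AUG_WT livers.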

How the results depend on the processing

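The number of members called was 0 under all 82 alternatives to the 4 comparisons. The median member log2 fold change kept its sign in del7 vs del7_WT (-0.10 to -0.03). In AUG vs AUG_WT it was 0.11 to 0.30 when any AUG or AUG_WT library but AUG_WT replicate 1 was left out, -0.03 without that library and -0.08 with limma voom quality weights, which gave that library a weight of 0.0844; 7 members were then above 0 and 37 below. In AUG_WT vs del7_WT it was 0.17 with those weights, and in the difference of the effects -0.007. Same-numbered libraries did not correlate above 0.1 in every pair (-0.16 to 0.35 in AUG vs AUG_WT, 0.09 to 0.28 in del7 vs del7_WT, with 2 and 6 of 8 libraries correlating best with their own number), so numbers were not taken as pairs; with the replicate block the medians were 0.19, -0.07, -0.07 and 0.22, and 1 gene was called between wild types and 2 in the difference. Counts of all genes called moved as follows. DESeq2 called 9, 1, 70 and 6 genes in AUG, del7, the wild types and the difference. Between wild types, unstranded counts and library totals gave 3, no filter 11, limma 12 and the 2 groups alone 13, and leaving out a library gave 1 to 10. limma called 3 in the difference, and leaving out a library gave 1 to 2. No value differs for the difference when only its own groups enter, since it uses all 4.

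Signs of single members reversed as follows. In AUG vs AUG_WT, limma with quality weights gave Ndufs8 -0.14, Ndufv1 -0.0043, Ndufb3 -0.078, Ndufb9 -0.012, Sdha -0.027, Uqcrfs1 -0.0091, Cox6b1 -0.014, Sdhb -0.091, Uqcrc1 -0.10 and Cyc1 -0.14, and all 8 wild types as control gave Ndufs8 -0.0033. Leaving out a library gave Ndufs8 -0.14 to 0.085, Ndufb3 -0.049 to 0.21, Sdhb -0.0038 to 0.36, Uqcrc1 -0.034 to 0.28 and Cyc1 -0.053 to 0.32. In del7 vs del7_WT, library totals gave Sdhd 0.026, Uqcrfs1 0.036, Cycs 0.023 and Cox4i1 0.015, all wild types as control gave the same genes 0.065, 0.036, 0.067 and 0.017, limma gave Uqcrfs1 0.014, and the 2 groups alone gave Cycs 0.0013. Leaving out a library gave Uqcrfs1 -0.058 to 0.035, Sdhd -0.086 to 0.023, Cox4i1 -0.076 to 0.025, Cycs -0.12 to 0.12 and Cox5b -0.18 to 0.060. The cause of these reversals was not tested. With 4 libraries a group, a member needs a shift well above its SE to be called. That SE was 0.19 at the median in the fit of all 16 libraries.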

Other observations

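Cox8b, the form of complex IV subunit 8 known from heart, skeletal muscle and brown fat and no member of the 44, was detected at 7.68 CPM in AUG_WT replicate 2. It was at 0.114 CPM in AUG_WT replicate 3 and had 0 counts in the other 14 libraries. Other muscle forms were low beside it: in AUG_WT replicate 2 Cox7a1 was at 0.284 CPM and Cox6a2 at 0.0948 CPM. Ucp1, the defining gene of brown fat, had 0 counts in all 16 libraries. The same library had the highest summed hepatocyte markers, 169849 CPM, the highest ratio of mitochondrially encoded to nuclear members, 9.02 against 4.74 to 7.65 in the other 15, and the lowest ratio of members to hepatocyte markers, 0.0199.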
